A study of Mus musculus with 24 samples.

Results

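The transcripts described here belong to 7 mouse genes that lead from a prolonged mitosis or an altered centrosome number to p53: *Trp53bp1*, *Usp28*, *Trp53*, *Mdm4*, *Pidd1*, *Casp2* and *Cradd*. They were chosen by symbol from a pathway list and are 7 of the 54658 genes in the table, of which 34228 were above 0 somewhere in the 24 libraries. All 7 passed the filter on low values, a mean of at least 10 normalized read counts, in each comparison.

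The mitotic surveillance pathway stops the division of cells whose mitosis lasted too long or whose centrosomes were lost. In it, 53BP1 and the deubiquitinase USP28 act together on p53, which then induces the cell cycle inhibitor p21, while MDM2 and MDM4 hold p53 in check. The PIDDosome answers the opposite defect: PIDD1 senses surplus centrosomes, the adaptor CRADD (also called RAIDD) bridges it to caspase 2, and caspase 2 cleaves MDM2. Neural progenitors of the embryonic cortex are known to depend on their centrosomes for timely mitosis, and most steps of both pathways act on proteins, which transcript counts do not measure.

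Cortex, as the sample titles name the tissue, was taken from 12 embryos, 3 in each group, at E11.5 and E14.5. Mutants were *Cep135*(Δ8/Δ8), homozygous in every cell for a small CRISPR/Cas9 deletion in the second exon of the centriole gene *Cep135*, and controls were *Cep135*(+/+). The methods give a C57BL/6J background. Cells of the same 6 E14.5 embryos were also dissociated and cultured with EGF and FGF2 to form incipient neurospheres for 12 or 24 hours, so that 18 of the 24 libraries come from 6 embryos. At E11.5 the mutants are called A, B and C and the controls D, E and F, and at E14.5 and in culture the mutants are 1, 2 and 6 and the controls 3, 4 and 5. Values of single embryos follow that order. The labels of the cortex of mutant 6 name both ages, and it was placed at E14.5, as its title says. All libraries of E14.5 embryos share 1 title prefix and the E11.5 libraries carry 2 others, so age cannot be told apart from whatever that prefix marks. The table and descriptions spell the prefix of E11.5 mutants B and C as TL48, where their titles and those of controls E and F have TC48. If that spelling marks a separate set, it cannot be told apart from the genotype in these 4 libraries.

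Libraries were read at the 3′ ends of transcripts and held 4732781 to 11645213 reads on genes. Values are normalized read counts, that is reads per gene divided by 1 size factor per library. Markers of dorsal telencephalon, 6 genes, summed to 3060 to 6138 in each library, and those of ventral telencephalon, 6 genes, to 938 to 3094. At E11.5 the dorsal sum was lower in mutants (3950 to 4848) than in controls (4985 to 5734). At 24 hours the mutant libraries were deeper (7903426 to 11645213 reads) than the control libraries (4732781 to 5709443 reads), held more of the RNA gene *Gm42418* (20.52% to 23.0% against 6.26% to 13.9%) and more liver transcripts (11 genes, 120 to 413 against 1.69 to 6.83), so that these cannot be told apart from the genotype there. *Cep135* itself ranged from 171 to 375 without separating the genotypes in any group, and 3′ reads do not show the deletion. Read from *Xist* and Y transcripts, the E14.5 controls were all male and 2 of the 3 E14.5 mutants were female.

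The 7 genes lie on 7 chromosomes of GRCm38, none of them on chromosome 5 with *Cep135* (76588698 to 76646466, plus strand). In GENCODE vM21 *Trp53* (ENSMUSG00000059552) lies on chromosome 11, 69580359 to 69591873, plus strand, and *Usp28* (ENSMUSG00000032267) on chromosome 9, 48985375 to 49042517, plus strand. *Pidd1* (ENSMUSG00000025507) lies on chromosome 7, 141438113 to 141444025, minus strand, *Casp2* (ENSMUSG00000029863) on chromosome 6, 42264985 to 42282508, plus strand, and *Cradd* (ENSMUSG00000045867) on chromosome 10, 95174746 to 95324133, minus strand. *Trp53bp1* (ENSMUSG00000043909) is on the minus strand of chromosome 2, 121193281 to 121271407, and overlaps *Tubgcp4* on the opposite strand. *Mdm4* (ENSMUSG00000054387) is on the minus strand of chromosome 1, 132959484 to 133030561. Reads were counted by strand, which separates *Trp53bp1* from *Tubgcp4*. *Casp2* and *Cradd* overlap small genes on their own strand (*Gm25108* and *Gm48880*), and *Trp53* and *Mdm4* have pseudogene rows that reached at most 3.02 and 12.6 normalized read counts, so that a few of their reads may have been assigned to these or dropped.

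Promoter windows of 300 bases, 250 before and 50 after each annotated start, were found in RefSeq (GRCm38.p6) for all 7 genes, 2 of them for *Mdm4*. Those of *Trp53*, *Usp28* and *Pidd1* are shown because these genes fell together between the ages, and that of *Trp53bp1* because it rose. Each reads 5′ to 3′ along the gene. Capitals mark GGGCGG (a GC box, on either strand) in the last 3, and in *Trp53*, which holds none, CACGTG (an E box) and a p53 half-site.
*Trp53*, chr11:69580109-69580408, plus strand: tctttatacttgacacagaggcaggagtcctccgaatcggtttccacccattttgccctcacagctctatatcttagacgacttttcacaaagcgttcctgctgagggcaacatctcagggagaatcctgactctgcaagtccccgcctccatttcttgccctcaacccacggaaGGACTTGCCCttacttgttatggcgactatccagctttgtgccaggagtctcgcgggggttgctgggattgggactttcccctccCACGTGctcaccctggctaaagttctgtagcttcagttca
*Usp28*, chr9:48985135-48985434, plus strand: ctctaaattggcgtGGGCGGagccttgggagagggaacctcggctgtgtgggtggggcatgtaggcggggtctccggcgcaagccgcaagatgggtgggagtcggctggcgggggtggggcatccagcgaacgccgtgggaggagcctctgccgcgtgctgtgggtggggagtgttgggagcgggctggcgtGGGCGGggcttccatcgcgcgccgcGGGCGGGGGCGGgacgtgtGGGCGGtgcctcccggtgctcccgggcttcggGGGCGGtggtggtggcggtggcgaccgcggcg
*Pidd1*, chr7:141443976-141444275, minus strand: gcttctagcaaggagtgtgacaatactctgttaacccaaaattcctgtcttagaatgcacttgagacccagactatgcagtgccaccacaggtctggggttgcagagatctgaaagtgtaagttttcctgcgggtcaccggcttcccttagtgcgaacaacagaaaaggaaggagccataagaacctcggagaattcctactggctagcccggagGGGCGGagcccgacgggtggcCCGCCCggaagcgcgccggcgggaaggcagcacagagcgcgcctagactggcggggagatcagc
*Trp53bp1*, chr2:121271358-121271657, minus strand: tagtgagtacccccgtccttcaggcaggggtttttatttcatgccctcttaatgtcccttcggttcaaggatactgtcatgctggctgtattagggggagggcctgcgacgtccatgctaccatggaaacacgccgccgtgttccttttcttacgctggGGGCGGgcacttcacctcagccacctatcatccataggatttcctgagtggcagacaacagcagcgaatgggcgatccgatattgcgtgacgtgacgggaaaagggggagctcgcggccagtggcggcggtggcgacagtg

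The *Usp28* window held 6 GC boxes, 5 of them between 58 bases before and 18 bases after the start, and was 74.7% G and C. *Pidd1* held 2, *Casp2* 2 and *Trp53bp1* 1, while the windows of *Trp53*, *Mdm4* and *Cradd* held none. Of all 32851 promoter windows 35.7% held a GC box, 37.4% CCAAT on either strand, 7.15% CACGTG, 4.60% TTCCCGC on either strand (an E2F motif) and 8.36% the p53 half-site. There was 1 CCAAT in *Trp53*, 1 in *Usp28* and 2 in *Casp2*, and there was 1 TTCCCGC in *Pidd1* and 2 in *Casp2*. The 3 promoters of the genes that fell with age thus had no motif of these 5 in common. The GC content ran from 40.3% in *Cradd* to 74.7% in *Usp28*, with a median of 52.7% over all windows.

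Over the 24 libraries each gene stayed within a few-fold. The highest value was 2.06 times the lowest for *Casp2*, 2.11 times for *Trp53bp1*, 2.54 times for *Cradd*, 2.68 times for *Mdm4*, 2.88 times for *Trp53*, 3.76 times for *Pidd1* and 4.40 times for *Usp28*. The last of these, with *Pidd1* and *Cradd*, rested on few reads: 29 to 109 reads per library for *Usp28*, 16 to 83 for *Pidd1* and 18 to 79 for *Cradd*, against 67 to 235 for *Trp53*, 129 to 534 for *Casp2*, 355 to 1132 for *Mdm4* and 758 to 2216 for *Trp53bp1*. The median coefficient of variation within a group of 3 was 4.41% for *Mdm4* and 7.07% for *Trp53bp1*, and 23.6% for *Pidd1*.

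**Figure D1:**
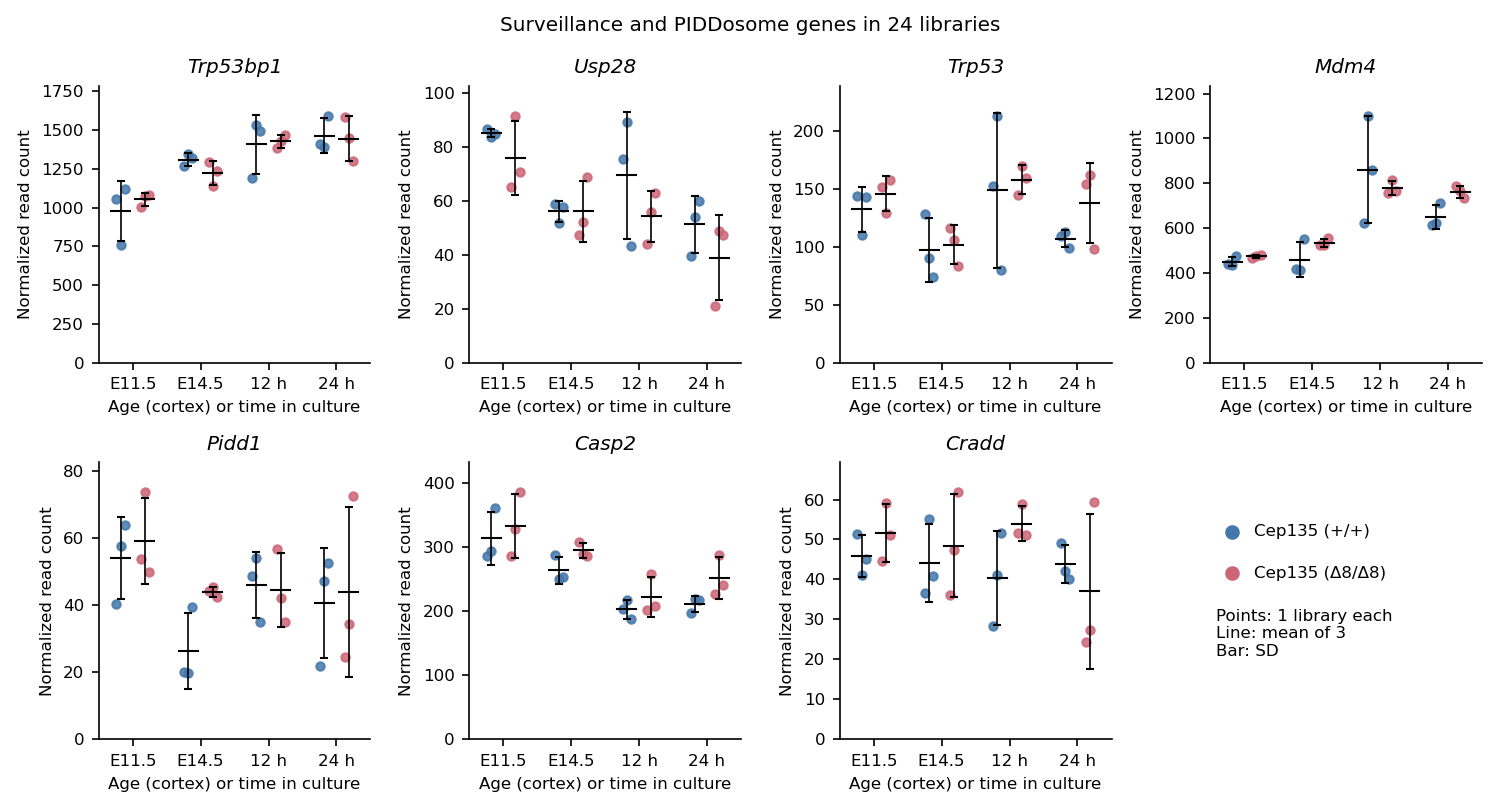
Normalized read count (vertical axis, from 0) of each of the 7 genes in all 24 libraries, by age of the cortex or time in culture. Each point is 1 library, blue for control and red for mutant, the horizontal line is the mean of 3 and the bar the SD. *Mdm4* lies at 411 to 556 in the cortices of both ages and at 616 to 1101 in culture, and the red and blue points of most groups overlap.

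*Trp53bp1* encodes 53BP1, the scaffold that presents USP28 to p53 and that also steers the repair of double-strand breaks. In the E11.5 cortex it stood at 1005, 1075 and 1081 in the mutants against 1055, 756 and 1122 in the controls. At E14.5 it was 1294, 1138 and 1235 in the mutants against 1266, 1346.5 and 1319.9 in the controls. The genotypes overlapped at both ages, and all E14.5 values lay above all E11.5 values. In culture it was 1387, 1429 and 1472 in the mutants against 1192, 1535 and 1498 in the controls at 12 hours, and 1588, 1447 and 1299 in the mutants against 1408, 1390.3 and 1594 in the controls at 24 hours. The 8 group means ran from 978 ± 195 (SD, n = 3) in E11.5 controls to 1464 ± 113 in 24-hour controls. Of the 7 neighbouring pairs in this order, 6 overlapped, the exception being E14.5 mutants over E11.5 mutants.

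*Usp28*, the deubiquitinase of the pathway, was highest at E11.5. It was 65.2, 91.5 and 70.7 in the mutants against 86.7, 83.6 and 84.7 in the controls. At E14.5 it was 47.4, 51.9 and 68.9 in the mutants against 58.8, 51.5 and 57.5 in the controls. At 12 hours the counts were 43.9, 55.8 and 62.7 in the mutants against 75.5, 89.2 and 43.3 in the controls, and at 24 hours 20.8, 48.6 and 47.1 in the mutants against 39.6, 53.9 and 60.0 in the controls. Genotypes overlapped in every group, and the lowest value of all was that of mutant 1 at 24 hours, which rested on 29 reads. All 7 neighbouring pairs of group means, from 85.003 ± 1.54 (SD, n = 3) in E11.5 controls down to 38.8 ± 15.7 in 24-hour mutants, overlapped.

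*Trp53* encodes p53, the transcription factor on which both pathways end. Its normalized read count was 152, 129 and 158 in the mutants against 144, 110.4 and 143 in the controls at E11.5, and 116, 106 and 83.8 in the mutants against 128, 90.7 and 74.1 in the controls at E14.5. At 12 hours the counts were 145, 170.5 and 159 in the mutants against 153, 214 and 80.5 in the controls, and at 24 hours 155, 162 and 98.6 in the mutants against 109, 113 and 98.8 in the controls. No group separated the genotypes, and the 12-hour controls held both the highest value of all libraries and a value near the lowest. Group means ran from 158 ± 12.6 (SD, n = 3) in 12-hour mutants to 97.7 ± 27.7 in E14.5 controls, with all 7 neighbouring pairs overlapping.

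*Mdm4* encodes an inhibitor that binds p53 and works with the ubiquitin ligase MDM2. In the cortex it was 466, 474 and 482 in the mutants against 440.4, 435 and 473 in the controls at E11.5, and 523, 522 and 556 in the mutants against 418, 411 and 550.1 in the controls at E14.5. At 12 hours the counts were 757, 817 and 764 in the mutants against 621, 1101 and 859 in the controls, and at 24 hours 785, 766 and 734 in the mutants against 616, 622 and 710.1 in the controls. Every cultured library lay above every cortex. In the order of the group means, from 861 ± 240.0 (SD, n = 3) in 12-hour controls to 449.5 ± 20.8 in E11.5 controls, 4 of the 7 neighbouring pairs overlapped. The pairs that did not were the 24-hour mutants over the 24-hour controls, these over the E14.5 mutants, and these over the E11.5 mutants.

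Of the PIDDosome genes, *Pidd1*, whose product is named for its induction by p53, was 53.5, 73.6 and 49.8 in the mutants against 40.3, 57.7 and 63.7 in the controls at E11.5. At E14.5 it was 44.04, 45.3 and 42.3 in the mutants against 19.999, 19.6 and 39.2 in the controls. All 3 E14.5 mutants lay above all 3 controls, with control 5 close to the mutants. At 12 hours the counts were 56.6, 42.1 and 34.9 in the mutants against 48.8, 54.0 and 34.9 in the controls, and at 24 hours 24.4, 34.4 and 72.5 in the mutants against 21.8, 47.2 and 52.5 in the controls, so that genotypes overlapped in culture. All 7 neighbouring pairs of group means overlapped, from 59.0 ± 12.8 (SD, n = 3) in E11.5 mutants to 26.3 ± 11.2 in E14.5 controls.

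*Casp2*, the caspase of the complex, was 285, 328 and 385 in the mutants against 286, 293 and 361 in the controls at E11.5, and 307, 289 and 286 in the mutants against 287, 249 and 253 in the controls at E14.5. At 12 hours the counts were 201, 258 and 208 in the mutants against 203, 217 and 187 in the controls, and at 24 hours 226, 287 and 240.1 in the mutants against 197, 219 and 218 in the controls. The 24-hour mutants all lay above the 24-hour controls, and the other groups overlapped. *Cradd*, the adaptor, lay between 24.4 and 61.9 and had the narrowest spread of group means, from 37.0 ± 19.4 (SD, n = 3) in 24-hour mutants to 53.9 ± 4.37 in 12-hour mutants. All 7 neighbouring pairs of means overlapped for each of these 2 genes.

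The first comparison asked whether loss of *Cep135* changed the amount of these transcripts. None of the 7 passed the threshold, an adjusted p under 0.05 from limma over all genes tested, at E11.5, at E14.5, after 12 or 24 hours of culture, or over the 12 cortices when the fit had an age term. The share of all genes that passed was 0.0149%, 0.0736%, 0.0%, 0.271% and 0.139%, in that order, so a count of 0 among 7 says little of these genes in particular. At an unadjusted p under 0.05 there were 0 members at E11.5, 1 at E14.5 (*Pidd1*, against 9.10% of all genes), 0 at 12 hours, 0 at 24 hours and 1 in the 12 cortices (*Pidd1*, against 8.71%). EdgeR and DESeq2 on whole reads also called 0 of 7 in each. In the 12-hour cultures limma called 0 of all 13389 genes, with 650 at an unadjusted p under 0.05, edgeR called 0 and DESeq2 9. Adjusted p-values of the 7 genes from limma lay between 0.509 and 0.992 over the 5 comparisons.

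The intervals give the range of effects these libraries leave possible. Fold changes are of log2(normalized read count + 1). For *Trp53* the log2 ratio of mutants to controls was 0.15 at E11.5 (95% interval -0.21 to 0.51), 0.09 at E14.5 (-0.42 to 0.59), 0.19 at 12 hours (-0.53 to 0.92) and 0.34 at 24 hours (-0.16 to 0.84). In the 12 cortices together it was 0.12 (-0.18 to 0.42), that is between 0.880-fold and 1.34-fold. The sensor transcripts were as close to 0 in the 12 cortices: 0.01 for *Trp53bp1* (-0.19 to 0.22) and -0.10 for *Usp28* (-0.38 to 0.19). *Pidd1* was at 0.46 (0.02 to 0.91), with an unadjusted p of 0.0434 and an adjusted p of 0.550 from limma. *Mdm4* was at 0.15 (-0.03 to 0.34), *Casp2* at 0.12 (-0.08 to 0.33) and *Cradd* at 0.14 (-0.21 to 0.49). Cultures gave wider intervals for the genes with few reads, such as *Pidd1* at 24 hours (-0.90 to 1.012) and *Cradd* at 12 hours (-0.47 to 1.36), whose upper ends are at 2.02-fold and 2.56-fold.

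**Figure D2:**
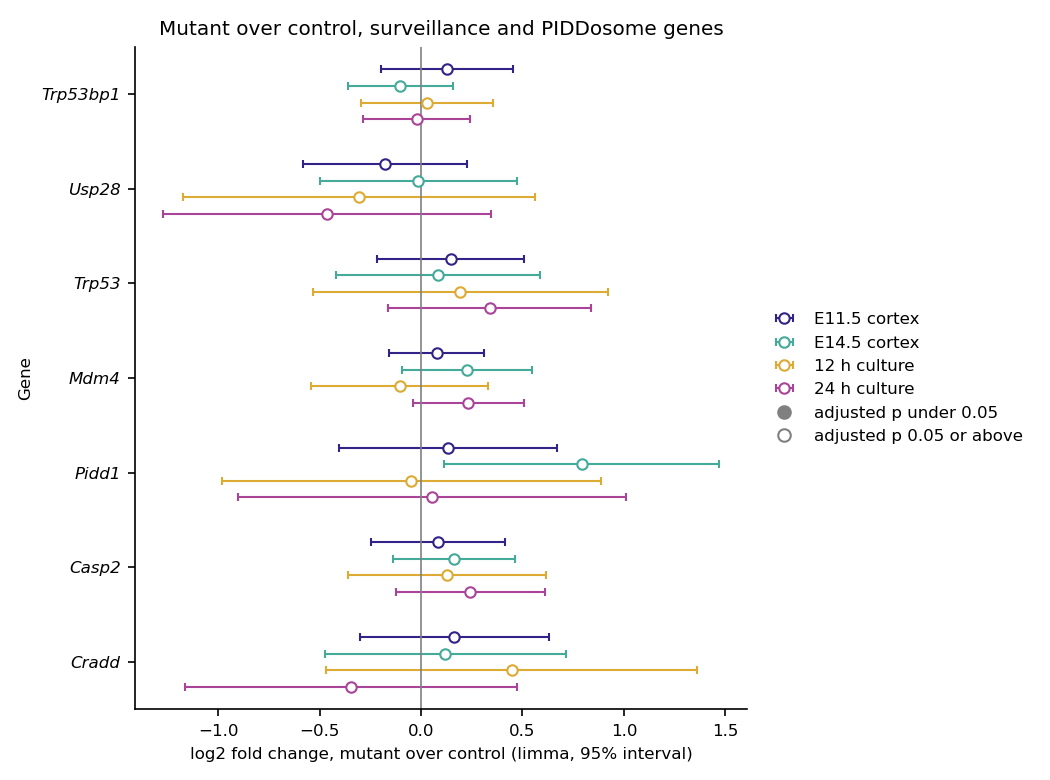
Log2 ratio of mutants to controls (horizontal axis) with its 95% interval from limma for the 7 genes, in the E11.5 cortex, E14.5 cortex, 12-hour and 24-hour culture. All 28 circles are open (adjusted p of 0.05 or above), and all intervals but that of *Pidd1* at E14.5, 0.11 to 1.47, include 0.

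*Pidd1* at E14.5 was the member furthest from 0. Its mean was 43.9 ± 1.499 in mutants and 26.3 ± 11.2 in controls (SD, n = 3 each), a log2 fold change of 0.79 with a standard error of 0.31, and the adjusted p from limma was 0.509. The values rested on 39, 41 and 54 reads in mutants and 17, 27 and 45 in controls. Its groups did not overlap, as for 13.7% of all genes in this comparison, and the exact permutation p was 0.1, the smallest that 3 against 3 can give. The log2 fold change was 1.11 without control 5 and 0.63 without control 4, with adjusted p-values from limma of 0.087 to 0.999 over all alternatives. Between the same libraries markers of microglia, 7 genes, were higher in mutants (756 to 948, against 406 to 472 in controls), and markers of postmitotic neurons, 8 genes, were lower (28623 to 29672, against 36275 to 39129). The groups also differed in sex, and with a term for sex the log2 fold change was 0.74. The part of these markers in the result was not tested. At E11.5 *Pidd1* was at 0.13 (95% interval -0.41 to 0.67). The difference between the ages in its genotype effect was 0.66 (interval -0.19 to 1.51, adjusted p from limma 0.658).

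No member separated the genotypes at E11.5 (0 of 7, against 13.3% of all genes) or at 12 hours (0 of 7, against 11.0%), and 2 did at 24 hours, *Mdm4* and *Casp2* (2 of 7, against 16.2%). Marker sums of dorsal and ventral telencephalon, endothelium, choroid plexus and liver did separate the genotypes at E11.5. At 12 hours those of choroid plexus (4619 to 15968 in mutants, 989 to 3759 in controls), intermediate progenitors, endothelium and microglia did. The part of these differences in the members' values was not tested. At 24 hours *Mdm4* was 762 ± 25.8 in mutants and 649 ± 52.8 in controls, a log2 fold change of 0.23 (standard error 0.13, adjusted p from limma 0.563). *Casp2* was 251.1 ± 32.3 against 211 ± 12.5, a log2 fold change of 0.24 (standard error 0.17, adjusted p from limma 0.665). Both exact permutation p-values were 0.1, again the smallest possible. Library depth, the *Gm42418* share, liver transcripts and markers of apical progenitors (12033 to 13161 in mutants, 9285 to 10748 in controls), choroid plexus (5 genes, 4964 to 16787 against 791 to 3576) and mesenchyme (5 genes, 224 to 290 against 146 to 182) separated the same libraries. With a term for the *Gm42418* share the log2 fold changes were 0.42 and 0.28, and the part of the others was not tested. For 0 of the 7 genes did the genotype effect pass a test of its difference between ages (0.0% of all genes passed), between 12-hour cultures and cortices (0.0%) or between 24 and 12 hours (0.0%), by limma interaction terms, and 0 of the 7 had an unadjusted p under 0.05. Over all genes these terms gave 1070, 724 and 318 at an unadjusted p under 0.05, edgeR called 0, 1 and 0 genes, and DESeq2 called 17, 5 and 0, none of them a member.

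*Cdkn1a*, which encodes p21 and is the standard readout of active p53, and *Mdm2*, the partner of *Mdm4* and a p53 target, were measured in the same libraries. *Cdkn1a* was 494, 554 and 466 in mutants against 256, 159 and 281 in controls at E11.5, 549.9, 634 and 443 against 358, 345 and 222 at E14.5, 1597, 1791 and 984 against 950.1, 798 and 695 at 12 hours, and 2158, 2248 and 2222 against 1050.0, 1348 and 920.1 at 24 hours. Every mutant value lay above every control value of its group, and the part of the marker differences between the genotypes in this was not tested. The log2 fold change was 0.99 in the 12 cortices (standard error 0.16, adjusted p from limma 0.0152) and 1.02 at 24 hours (standard error 0.14, adjusted p from limma 0.0109), and in the other 3 comparisons *Cdkn1a* missed the threshold. Without E14.5 mutant 2 or E11.5 mutant C the call in the 12 cortices was lost, at log2 fold changes of 0.96 and 0.9999 (adjusted p from limma 0.0658 and 0.0502), and so was the call at 24 hours without control 5 (log2 fold change 0.89, adjusted p 0.0539), with a term for sex (1.02, adjusted p 0.106) and with a term for the *Gm42418* share (log2 fold change 0.47, adjusted p from limma 0.939).

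*Mdm2* did not follow *Cdkn1a*. It was 397, 417 and 410.3 in the mutants against 404, 365 and 377 in the controls at E11.5, 351, 349.98 and 478 against 328, 396 and 439 at E14.5, 688, 643 and 964 against 785, 636 and 732 at 12 hours, and 691, 593 and 641 against 713, 659 and 648 at 24 hours. The genotypes overlapped in all 4 groups. Its log2 fold change in the 12 cortices was 0.06 (95% interval -0.15 to 0.27, adjusted p from limma 0.903), an interval that lies below that of *Cdkn1a*, 0.66 to 1.32.

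**Figure D3:**
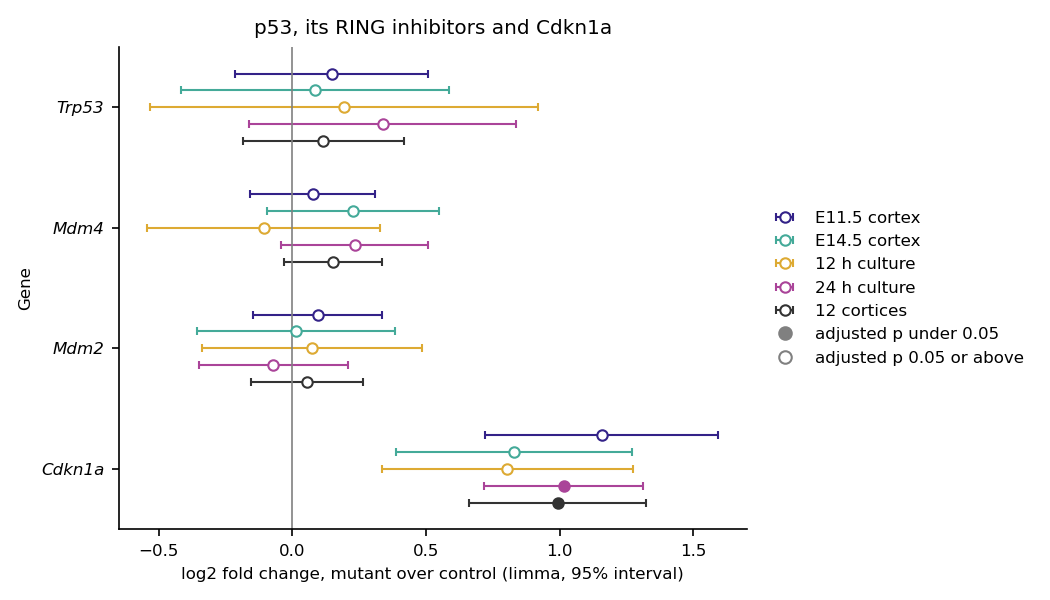
Log2 ratio of mutants to controls (horizontal axis) with its 95% interval from limma for *Trp53*, its inhibitors *Mdm4* and *Mdm2*, and the p53 target *Cdkn1a*, in the 4 groups and over the 12 cortices when the fit had an age term. The *Cdkn1a* intervals lie above 0 in all 5 comparisons, with filled circles (adjusted p under 0.05) at 24 hours and in the 12 cortices, while all 15 intervals of the other 3 genes include 0.

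In the wider pathway 6 lists were examined: genes around the surveillance complex (9 genes, among them *Trim37*, *Plk4* and the distal appendage genes), ubiquitin regulators of p53 (14), kinases and cofactors of p53 (17), repair partners of 53BP1 (10, of which 9 were in the table), paralogues (*Trp63*, *Trp73* and *Usp25*) and caspases with death adaptors (11). Between genotypes 0 of their 61 tested genes passed the threshold at E11.5, 0 of 61 at E14.5, 0 of 59 at 12 hours, 0 of 59 at 24 hours and 0 of 61 in the 12 cortices by limma, with 1, 5, 6, 6 and 4 at an unadjusted p under 0.05, where 7.39%, 9.10%, 4.85%, 10.6% and 8.71% of all genes were. Their median log2 fold changes were 0.01, 0.07, -0.07, -0.0045 and 0.04, beside 0.02, 0.01, -0.02, -0.01 and 0.01 for all genes tested. Of 23 p53 targets, 0 of 21 tested passed at E11.5, 0 of 18 at E14.5 and 0 of 22 at 12 hours, with median log2 fold changes of 0.45, 0.51 and 0.51. Unadjusted p-values from limma were under 0.05 for 10, 10 and 7 of these targets, in that order. The same held for 13 of 22 at 24 hours and 10 of 21 in the 12 cortices, beside the shares of all genes given above. In the 12 cortices 5 of 21 tested were higher in mutants (0.139% of all genes passed) and at 24 hours 2 of 22 (0.271%). None was lower in these 2 comparisons, where the medians of the targets were 0.43 and 0.61. Besides *Cdkn1a* the targets that passed were *Ccng1*, a cyclin G (log2 fold change 0.82 in the cortices and 1.06 at 24 hours), *Eda2r*, a receptor of the TNF receptor family (2.28 in the cortices), and, named after their values were seen, *Ddit4l* and *Sesn2* in the cortices.

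The second comparison asked how these transcripts changed as the cortex matured. Of the 7 genes, 4 passed the threshold between E14.5 and E11.5 cortices, with genotype as a term. *Trp53*, *Usp28* and *Pidd1* were lower at E14.5 and *Trp53bp1* was higher. Of all genes 53.1% passed, 23.8% higher and 29.3% lower, so 4 of 7 is close to the share of the whole table. *Trp53* fell by 0.49 on the log2 scale (standard error 0.14, adjusted p from limma 0.0080), from a mean of 139 to 99.9 over 6 embryos each. *Usp28* fell by 0.51 (standard error 0.13, adjusted p 0.0045 from limma), from 80.4 to 56.0, and *Pidd1* fell by 0.73 (standard error 0.21, adjusted p 0.0082 from limma), from 56.4 to 35.1. *Trp53bp1* rose by 0.33 (standard error 0.10, adjusted p 0.0088 from limma), from 1016 to 1267.

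Within each genotype the E14.5 values of *Pidd1* lay below and those of *Trp53bp1* above all E11.5 values. *Trp53* was separated in mutants but not in controls, and *Usp28* in controls but not in mutants. Exact permutation p-values, with ages permuted within genotype, were 0.005 for *Pidd1* and *Trp53bp1*, the smallest possible, 0.01 for *Usp28* and 0.015 for *Trp53*, among 56 such tests made over the 7 genes. After Benjamini-Hochberg adjustment over these 56 permutation tests they were 0.14 for *Pidd1* and *Trp53bp1*, 0.187 for *Usp28* and 0.21 for *Trp53*. None of these 4 was under 0.05. Within 1 genotype the directions were kept and some calls lost: in mutants alone *Trp53* passed (adjusted p from limma 0.0377), and in controls alone *Trp53bp1*, *Usp28* and *Pidd1* did (0.0429, 0.0211 and 0.0266). With all 24 libraries in one fit the call of *Usp28* was lost (adjusted p from limma 0.0630). *Casp2* was at -0.21 (adjusted p from limma 0.0824), and passed without E11.5 mutant A (-0.26, adjusted p 0.0344 from limma). *Mdm4* was at 0.10 and *Cradd* at -0.09, with intervals of -0.09 to 0.28 and -0.44 to 0.26.

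The makeup of the cortex moved with age. Markers of postmitotic neurons, 8 genes, summed to 8823 to 13240 at E11.5 and 28623 to 39129 at E14.5, and those of apical progenitors, 8 genes, to 14731 to 18475 and 8874 to 11077, with no marker of either list at 0 in any library. In the apical list *Slc1a3* rose, from 282 to 364 to between 845 and 967. Sums of intermediate progenitors (1500 to 2210, then 2873 to 3297) and choroid plexus (154 to 312, then 736 to 7606) also rose without overlap. So did that of ventral telencephalon (938 to 1610, then 2090 to 2706). Erythroid (33708 to 52721, then 15833 to 20059) and endothelial sums (1018 to 1288, then 847 to 996) fell without overlap. Dorsal, microglial, liver and mesenchymal sums overlapped. The part of these shifts in the members' changes was not tested. In bulk tissue fewer cells of a type and less RNA per cell cannot be told apart.

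In the same comparison 6 genes of the 6 pathway lists were higher and 25 lower among 61 tested, with a median of -0.23 beside -0.08 for all genes. Of all genes 53.1% passed, 23.8% higher and 29.3% lower, so the share of the lists that passed, both directions together, is close to that of the whole table. Around the surveillance complex 4 of 9 were lower and none higher. These included *Plk1*, the mitotic kinase (log2 fold change -1.23), *Plk4*, the kinase that starts centriole duplication (-0.96), and *Cep164* of the distal appendages (-0.62). Of the repair partners of 53BP1, *Rif1* (-0.47), *Paxip1* (-0.94) and *Mdc1* (-1.07) were lower while *Trp53bp1* itself rose, and *Mad2l2* was the 1 list member that was higher (0.60). Of the caspases and adaptors, *Casp6* (-0.82), *Casp8* (-1.09) and *Fadd* (-0.43) were lower. Of 17 kinases and cofactors, *Ppp1r13b* (1.59) and *Dyrk2* (0.44) were higher and 8 were lower, led by the checkpoint kinase genes *Chek1* (-1.17) and *Chek2* (-0.62) with *Kmt5a* (-0.32), and *Usp25* (-0.76), the closest relative of *Usp28*, was lower too. Of 13 tested ubiquitin regulators 2 were higher, led by the cullin gene *Cul9* (1.21), and 5 lower, led by *Trim24* (-0.50). All of these passed the threshold by limma over all genes.

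**Figure D4:**
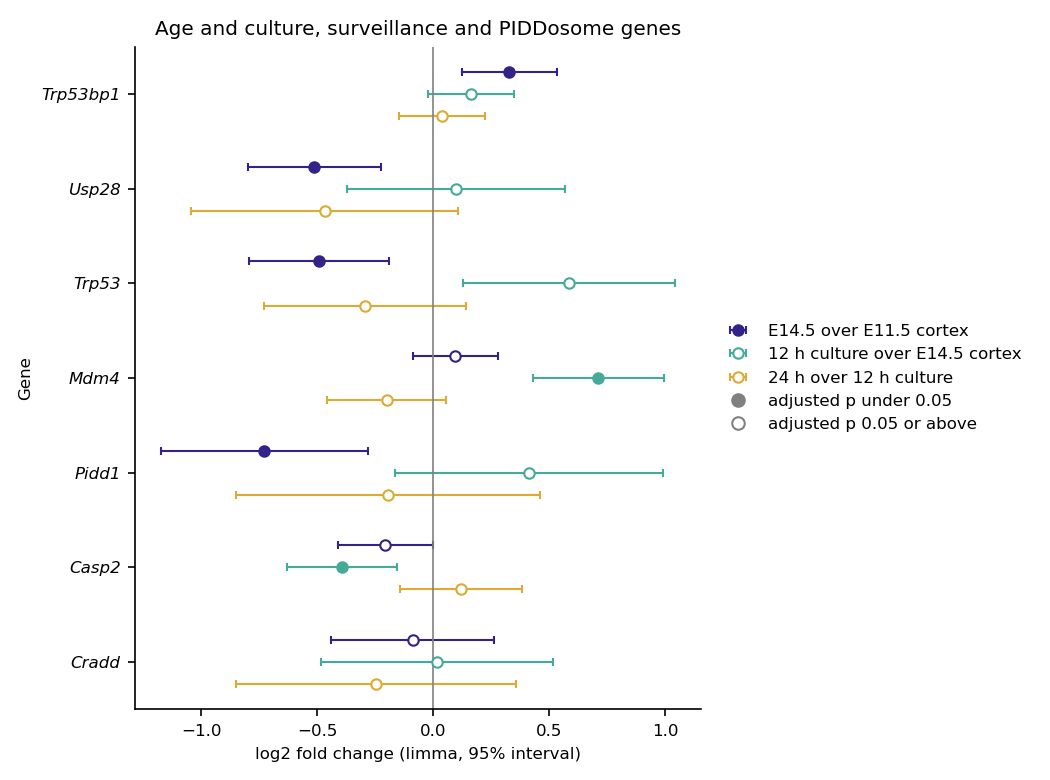
Log2 fold change (horizontal axis) with its 95% interval from limma for the 7 genes, in E14.5 over E11.5 cortices, 12-hour cultures over E14.5 cortices, and 24-hour over 12-hour cultures, each with genotype as a term. Filled circles (adjusted p under 0.05) are *Trp53bp1*, *Usp28*, *Trp53* and *Pidd1* for age and *Mdm4* and *Casp2* for the first 12 hours of culture; there is none for 24 over 12 hours.

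The third comparison asked what dissociation and 12 hours in culture did to the same 6 embryos' cells. *Mdm4* rose and *Casp2* fell, 2 of 7 genes past the threshold, where 30.2% of all genes passed, 14.1% higher and 16.1% lower. *Mdm4* went from a mean of 497 to 819.9, a log2 fold change of 0.71 (standard error 0.13, adjusted p from limma 0.000874), and was higher in culture in 6 of 6 embryos, by 0.46 to 1.42. *Casp2* went from 279 to 212 and fell by 0.39 on the log2 scale (standard error 0.11, adjusted p from limma 0.0150), lower in 6 of 6 embryos. The call of *Casp2* was lost when both libraries, cortex and culture, of 1 embryo were left out. This held for mutant 1 (-0.35, adjusted p 0.0719 from limma) and control 3 (-0.37, adjusted p 0.0503 from limma). *Mdm4* also passed in each genotype alone. *Trp53* went from 99.9 to 154, a log2 fold change of 0.59 with an adjusted p of 0.0501 from limma. It was higher in 6 of 6 embryos, by 0.12 to 1.23, and with the embryo as a block, which pairs each culture with its own cortex, it passed (adjusted p 0.0330 from limma). *Trp53* also passed with edgeR (0.0331), with DESeq2 (0.0201), and with limma under TMM, quantile scaling, a pseudocount of 5 and a filter of 50. It passed as well in the limma fit of all 24 libraries and without both libraries of control 5. Exact sign-flip permutation p-values were 0.03125 for *Mdm4*, *Casp2* and *Trp53*, the smallest that 6 embryos allow. After Benjamini-Hochberg adjustment over the 56 permutation tests of the members, each was 0.25.

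The sensor genes and the rest of the PIDDosome did not pass. *Trp53bp1* was at 0.16 (95% interval -0.02 to 0.35), *Usp28* at 0.10 (-0.37 to 0.57), *Pidd1* at 0.41 (-0.17 to 0.99) and *Cradd* at 0.02 (-0.48 to 0.51), and the last 3 were higher in 3 embryos and lower in 3. *Mdm2* rose like *Mdm4*, from 390.5 to 741 (log2 fold change 0.92, adjusted p from limma 6.7e-05), as did *Usp7*, the deubiquitinase of MDM2 and p53 (0.39), and *Usp10* (0.29), 3 of 13 ubiquitin regulators, with none lower, where 14.1% of all genes were higher and 16.1% lower. Of the p53 targets 13 of 21 were higher and none lower, led by *Cdkn1a* (1.41), *Aen* (1.22) and *Sesn2* (1.84). Among 11 caspases and adaptors 4 were lower, led by *Casp6* (-1.17), *Casp9* (-0.68) and *Ikbkg* (-0.9985), and none was higher. Of the kinases and cofactors the acetyltransferase genes *Ep300* (0.69) and *Crebbp* (0.65) were higher, with *Kmt5a* (0.52), and *Chek2* (-1.11), *Prkdc* (-1.10) and *Ppp1r13l* (-2.30) were lower. Of the repair partners *Rif1* was higher (0.36) and *Shld1* (-1.45), *Mad2l2* (-0.69) and *Nudt16l1* (-0.64) were lower. *Usp25* (-0.48) and *Trp73* (-1.03) fell, and around the surveillance complex *Cep83* rose (0.78) and *Cep89* fell (-0.62).

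Vascular, microglial and mesenchymal transcripts were nearly gone in culture. Markers of endothelium, 6 genes, summed to 847 to 996 in E14.5 cortices and 24.3 to 103 at 12 hours, those of microglia, 7 genes, to 406 to 948 and 6.31 to 42.5, and those of mesenchyme, 5 genes, to 1434 to 2442 and 118 to 256. Intermediate progenitor markers, 6 genes, went from 2873 to 3297 down to 1626 to 2287. Erythroid markers, 6 genes, went the other way, from 15833 to 20059 up to 32465 to 65958. Choroid plexus markers, 5 genes, went from 736 to 7606 to between 989 and 15968, and those of neurons and apical progenitors lay at 26682 to 41478 and 8325 to 11593 at 12 hours. The apical sum held opposite moves. *Pax6*, *Hes1*, *Hes5*, *Nes* and *Slc1a3* lay below every E14.5 cortex at 12 hours, *Vim* lay above, and *Sox2* and *Emx2* overlapped. *Hes5* went from between 947 and 1367 to between 42.5 and 71.2, and *Vim* from between 2890 and 3614 to between 4750 and 7008. *Cldn5* was at 0 in 4 and *Aif1* in 4 of the 6 12-hour libraries. The part of these shifts in the changes of *Mdm4* and *Casp2* was not tested.

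Between 12 and 24 hours 0 of the 7 genes passed the threshold by limma (0.292% of all genes did), 0 had an unadjusted p under 0.05, and edgeR and DESeq2 called 0. *Mdm4* was at -0.20 (95% interval -0.46 to 0.06), lower in 5 of 6 embryos, *Usp28* at -0.47 (-1.04 to 0.11), also lower in 5, and *Casp2* at 0.12 (-0.14 to 0.38), higher in 5. *Trp53* was at -0.30 (-0.73 to 0.14), lower in 4 of 6.

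The members did not share a single pattern. Over the 24 libraries, which differ in age, culture and depth, Pearson's r of the log2 values between pairs of members ran from -0.65 for *Mdm4* and *Casp2* to 0.73 for *Trp53bp1* and *Mdm4*. After subtraction of the group means these were 0.18 and 0.54. *Usp28* and *Pidd1* correlated at 0.52 over the libraries and 0.54 within groups, and *Trp53* with its deubiquitinase *Usp28* at 0.18 and 0.19.

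Among 13678 genes with a mean of at least 10, those most like *Trp53* over the 24 libraries were *Rrp15* (r = 0.82), *Atad3a* (0.82) and *Abce1* (0.80). Those most like *Trp53bp1* were *Ip6k2* (0.91), *Tulp4* (0.90) and *Imp3* (0.89), and those most like *Mdm4* *Gm4258* (0.93), *Dmtf1* (0.92) and *Selenoi* (0.91). *Usp28* was closest to *Tfcp2* (0.80), *Ddx11* (0.78) and the progenitor gene *Sox2* (0.78). *Pidd1* was closest to *Sf3b3* (0.80), *Eif3d* (0.79) and *Rad50* (0.78), *Casp2* to *Vamp8* (0.91), *Lamb2* (0.91) and *Rhoc* (0.90), and *Cradd* to *Thnsl1* (0.67), *Slc25a53* (0.66) and *2310009B15Rik* (0.61). These are the highest of many correlations over libraries that share embryos, ages and depth, and are given as a description.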

How the data were processed

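RNA of 12 cortices and of 12 cultures from 6 of the same embryos was sequenced with oligo(dT)-primed 3′ libraries. The authors aligned reads to GRCm38 with TopHat2 (2.0.10, Bowtie 1.0.0, SAMtools 0.1.19, FastQC 0.11.7, per the submitters' processing notes) and counted them by strand on GENCODE vM20 genes with HTSeq (0.6.1). The deposited signal is normalized read counts, scaled by the authors with 1 size factor for each library and not pooled. In each of the 24 libraries 100% of the values fell on whole reads (tolerance 0.01), and these whole reads were used for edgeR (4.0.16) and DESeq2 (1.42.0). No column was left unused.

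The test was limma (3.58.1, R 4.3.3) with an intensity trend on log2(normalized read count + 1), in the libraries compared, after genes whose mean there was under 10 were dropped, with Benjamini-Hochberg adjustment over all genes tested and a threshold of 0.05. In fits of cortices alone or of a single culture time, each library was a different embryo, with 3 per group. P-values there measure the spread between embryos. The main fits that joined cultures with cortices, or both culture times, had no embryo term. In them libraries of the same embryo entered as if independent, and the embryo was a block only among the alternatives. Fold changes are on the log2(value + 1) scale and understate those of low genes. Exact permutation tests were two-sided. Same-embryo libraries were paired by the labels, and their deviations from group means correlated at -0.11 to 0.24. Intervals are 95% intervals from limma.

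The members and lists were chosen with earlier results of these data known. Named genes are the 7 members, in each list the genes of smallest p among those that passed (at most 3 in each direction), *Cdkn1a* and *Mdm2* between genotypes, and the 3 genes most correlated with each member. A gene named by this rule is not reported here. Promoters came from RefSeq (GRCm38.p6) and positions from GENCODE vM21. Alternatives were other pseudocounts (0.1, 5), low-value filters (none, 50), TMM and quantile scaling, edgeR, DESeq2, all 24 libraries in one fit, the embryo or title prefix as a block, terms for sex and the *Gm42418* share, each genotype alone, a threshold of 0.1 and leaving out each library. In fits that joined cultures with cortices, or both culture times, both libraries of an embryo were left out together. On simulated counts for 13583 genes of the E14.5 cortices, limma found 176 of 200 genes simulated with a 2-fold change and called 6 others, and found 200 of 200 with a 4-fold change and called 5 others. The simulation gave all genes the same dispersion, with no differences of sex or tissue makeup between embryos. It checks the code and does not give the share of real changes that limma would find in these libraries. Figures were drawn with matplotlib.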

Additional observations from a re-analysis of the deposited data

How the results depend on the processing

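Of 1440 values under the alternatives, 1349 kept their direction and their side of the threshold, and of 67 log2 fold changes 26 changed sign in 1 or more of them. None of the 26 passed the threshold in the main test, and no reversed value did. The cause of these changes was not tested. The count of members past the threshold for age was 1 in mutants alone. For 12-hour culture over cortex it was 1 in controls alone, 1 in mutants alone and 1 to 3 when both libraries of 1 embryo were left out. Fewer samples entered each of these fits. With the embryo as a replicate block, which pairs libraries of the same embryo, 3 members passed for 12-hour culture over cortex, *Trp53* being the added gene, as it also was with edgeR and DESeq2, and the block changed no other call. The log2 fold change changed sign as follows. With a term for sex it was -0.18 for *Trp53* at E14.5, 0.30 for *Usp28* at E14.5, -0.11 for *Trp53* at 24 hours, 0.44 for *Cradd* at 24 hours and 0.042 for *Usp28* in the 12 cortices. With edgeR it was 0.0065 for *Usp28* at E14.5, -0.013 for *Trp53bp1* in the 12 cortices and 0.0083 for *Cradd* in age. With DESeq2 it was 0.0046 for *Usp28* at E14.5, -0.011 for *Trp53bp1* in the 12 cortices and 0.0098 for *Cradd* in age. With a term for the *Gm42418* share it was -0.080 for *Trp53* at 12 hours and 0.14 for *Trp53bp1* at 24 hours. With quantile normalization it was 0.077 for *Trp53bp1* at 24 hours, -0.028 for *Pidd1* at 24 hours and -0.0051 for *Trp53bp1* in the 12 cortices. With TMM it was -0.0049 for *Trp53bp1* in the 12 cortices. In mutants alone it was -0.047 for *Usp28* in 12-hour culture over cortex and -0.0058 for *Pidd1* in 12-hour culture over cortex. In controls alone it was -0.15 for *Cradd* in 12-hour culture over cortex and 0.15 for *Cradd* in 24 over 12 hours. Leaving out 1 library, or in 12-hour culture over cortex and 24 over 12 hours both libraries of 1 embryo, gave the following ranges. *Trp53bp1* ranged from -0.047 to 0.24 at E11.5, -0.085 to 0.10 at 12 hours, -0.092 to 0.053 at 24 hours, -0.077 to 0.049 in the 12 cortices and -0.0039 to 0.080 in 24 over 12 hours. *Pidd1* ranged from -0.061 to 0.26 at E11.5, -0.23 to 0.11 at 12 hours, -0.38 to 0.39 at 24 hours and -0.44 to 0.0018 in 24 over 12 hours. *Casp2* ranged from -0.026 to 0.19 at E11.5. *Trp53* ranged from -0.093 to 0.30 at E14.5 and -0.19 to 0.51 at 12 hours. *Usp28* ranged from -0.17 to 0.10 at E14.5 and -0.038 to 0.20 in 12-hour culture over cortex. *Cradd* ranged from -0.070 to 0.31 at E14.5 and -0.082 to 0.10 in 12-hour culture over cortex. *Mdm2* ranged from -0.13 to 0.11 at E14.5, -0.10 to 0.19 at 12 hours and -0.0065 to 0.10 in the 12 cortices. *Mdm4* ranged from -0.32 to 0.091 at 12 hours. *Cdkn1a* passed at E11.5 with a sex term, with DESeq2, without the low-value filter and in the fit of all 24 libraries, and at E14.5 with DESeq2. Over all genes DESeq2 called more than limma between genotypes, 34 against 2 at E11.5, 64 against 10 at E14.5, 9 against 0 at 12 hours, 182 against 36 at 24 hours and 94 against 19 in the 12 cortices, and 160 against 39 for 24 over 12 hours, while edgeR called 1 at E11.5, and none of these was a member. The title prefix as a block, with E11.5 mutants B and C placed as their titles say, changed no call of the members. *Usp28*, *Pidd1* and *Cradd* rested on fewer than 110 reads in each library, which limits what their comparisons can show. In leave-one-out fits of 2 against 3 libraries the spread was pooled over the groups.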
